A study of Mus musculus with 10 samples.

Results

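The genes described here are the 10 that write, copy, read out or erase 5-methylcytosine in mouse embryonic stem cells (ESCs): the DNA methyltransferases Dnmt3a, Dnmt3b and Dnmt1, the catalytically inactive cofactor Dnmt3l, the hemimethylation readers Uhrf1 and Uhrf2, the oxidases Tet1, Tet2 and Tet3, and the glycosylase Tdg. They were chosen by name, with earlier results of these data known, as 10 of the 21853 protein-coding genes measured. All 10 were in every table, and all 10 were among the 12060 genes that passed the filter on low values.

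RNA was sequenced in bulk from 5 lines of J1 ESCs with 2 libraries a line, 10 in all. Naïve ESCs were wild-type cells on gelatin in serum medium with LIF and 2i, the inhibitors PD0325901 of MEK and CHIR99021 of GSK3. AKO (AMPK KO), GKO (GYS1 KO) and DKO (AMPK, GYS1 KO) were derived from those cells. Primed ESCs (PJ1) were wild-type cells on Matrigel in serum replacement medium with bFgf and Activin. AMPK is a kinase that senses low energy, with Prkaa1 and Prkaa2 as its catalytic subunits, and Gys1 is the synthase that builds glycogen. The knockouts were made with CRISPR/Cas9, AKO through insertion of an RFP reporter and GKO through small insertions or deletions in Gys1. In the paper the AMPK knockout of AKO and DKO is one of Prkaa1, and no knockout of Prkaa2 is named. Loss or presence of AMPK below therefore refers to Prkaa1. The sources do not state which clone gave which library, so an effect of the lost gene and one of the clone or of time in culture cannot be told apart. Nothing states that both libraries of a line came from separate cultures, and p-values measure only the spread between such libraries.

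Methylation of cytosine before guanine (CpG) is laid down on unmethylated DNA by Dnmt3a and Dnmt3b, which Dnmt3l stimulates without being an enzyme itself. After replication Uhrf1 binds the half-methylated site and brings Dnmt1 to it, so that the pattern is copied. Tet enzymes oxidise the methyl group, Tdg cuts out the oxidised bases, and base excision repair puts back an unmodified cytosine. Naïve ESCs in 2i are known for a sparsely methylated genome with little Dnmt3 protein, and primed cells for a heavily methylated one. No methylation was measured in these libraries.

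The start regions of the 3 de novo genes are shown because these genes had the 3 largest interactions described further on and because CpG, the substrate of the family, is spaced very differently in them. Windows of 300 bases, from 250 before to 50 after a RefSeq start (build GRCm38.p6), were found for 10 of 10 genes and came to 17 windows, of which the outer pair of Dnmt3a overlap. The sequences below run 5′ to 3′ on the plus strand, which is the gene's strand in each, and capitals mark CpG. They are the 3 Dnmt3l windows, chr10:78042037-78042336, chr10:78049592-78049891 and chr10:78055085-78055384, the Dnmt3b window, chr2:153649199-153649498, and the innermost of the 3 Dnmt3a windows, chr12:3891494-3891793.
Dnmt3l outermost window: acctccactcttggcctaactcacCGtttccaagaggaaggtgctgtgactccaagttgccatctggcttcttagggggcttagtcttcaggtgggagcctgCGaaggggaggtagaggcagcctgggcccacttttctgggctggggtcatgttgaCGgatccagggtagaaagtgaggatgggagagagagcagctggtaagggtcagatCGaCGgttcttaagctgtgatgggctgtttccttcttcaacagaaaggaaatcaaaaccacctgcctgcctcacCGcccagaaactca
Dnmt3l middle window: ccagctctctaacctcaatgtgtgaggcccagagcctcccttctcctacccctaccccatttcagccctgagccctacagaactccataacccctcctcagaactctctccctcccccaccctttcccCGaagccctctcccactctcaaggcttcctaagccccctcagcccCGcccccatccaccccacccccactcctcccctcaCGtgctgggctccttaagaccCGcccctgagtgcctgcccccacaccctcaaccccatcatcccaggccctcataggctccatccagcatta
Dnmt3l innermost window: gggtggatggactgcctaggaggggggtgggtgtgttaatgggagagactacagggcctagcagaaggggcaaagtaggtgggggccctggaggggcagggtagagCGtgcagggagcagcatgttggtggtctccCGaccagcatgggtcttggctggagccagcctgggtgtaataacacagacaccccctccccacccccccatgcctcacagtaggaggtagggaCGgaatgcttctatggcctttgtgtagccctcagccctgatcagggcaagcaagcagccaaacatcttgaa
Dnmt3b window: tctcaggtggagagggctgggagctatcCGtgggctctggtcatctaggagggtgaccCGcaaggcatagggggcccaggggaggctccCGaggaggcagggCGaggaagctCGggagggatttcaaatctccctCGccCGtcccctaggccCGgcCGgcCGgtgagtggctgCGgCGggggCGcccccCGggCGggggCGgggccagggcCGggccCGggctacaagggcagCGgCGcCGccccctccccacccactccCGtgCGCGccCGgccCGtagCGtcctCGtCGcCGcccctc
Dnmt3a innermost window: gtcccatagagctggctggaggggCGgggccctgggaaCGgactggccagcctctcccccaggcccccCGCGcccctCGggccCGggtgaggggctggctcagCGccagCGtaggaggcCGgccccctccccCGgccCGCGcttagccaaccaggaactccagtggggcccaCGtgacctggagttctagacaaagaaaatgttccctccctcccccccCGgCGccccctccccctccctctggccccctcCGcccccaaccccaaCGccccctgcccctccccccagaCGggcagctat

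The 3 Dnmt3l windows held 6, 4 and 3 CpG, against a median of 7 over all 32841 RefSeq windows. The Dnmt3b window held 30, more than 88.3% of all windows, and the 3 Dnmt3a windows held 46, 47 and 18. The densest was that of Tet2 with 57, above 99.8% of windows, and the sparsest the outermost of the 3 Dnmt1 windows with 2. The GC box GGGCGG, read on both strands, lay in 13 of the 17 windows and in 35.7% of all, and the E box CACGTG in 3 of 17 and 7.15%. The 3 with an E box were the middle one of Dnmt3l, the innermost of Dnmt3a and that of Tdg. CCAAT was found in 6 of 17 and in 37.4% of all. The TCF/LEF motif CTTTGAT, searched on both strands because CHIR99021 acts on Wnt signalling, was in 0 of 17 windows and in 3.73% of all. GGGCGG and CACGTG each contain a CpG. TPM were given per gene, so which start was used was not measured.

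The 8 naïve pluripotency markers summed to between 1660 and 1950 TPM (a level scaled to the library's sum and corrected for transcript length) in the 8 libraries of naïve, AKO, GKO and DKO cells, and to 137 and 139 TPM in primed ESCs, where Zfp42 and Esrrb were near 0. Prkaa1 was at 15.5 and 16.6 TPM in naïve ESCs, at 7.24 and 6.94 TPM in AKO and at 2.30 and 2.04 TPM in DKO. Gys1 was at 11.5 and 10.8 TPM in naïve cells. GKO held 9.70 and 9.98 TPM and DKO 12.1 and 11.7 TPM. A small insertion or deletion need not lower a transcript, so this is no check of GKO. Prkaa2 was listed in every line, at 2.39 to 3.29 TPM in the 4 lines in 2i and at 8.30 and 9.38 TPM in primed ESCs. Trophectoderm markers summed to 31.4 and 31.6 TPM in naïve cells. GKO held 42.0 and 42.0 TPM and DKO 36.8 and 38.3 TPM, and 3 of the 4 tested rose in each of GKO and DKO, with Cdx2 going from 2.57 and 2.66 TPM in naïve cells to 6.62 and 7.27 TPM in GKO. Eomes, the other tested marker and the most abundant in naïve cells, was at 19.8 and 20.3 TPM there. It was lower in GKO, at 17.7 and 17.0 TPM, and in DKO, at 16.7 and 16.0 TPM, and was called in neither. Fibroblast markers summed to 7.97 and 9.22 TPM in GKO against 2.76 and 3.33 TPM in naïve ESCs. Most of that sum was Thy1, at 7.14 and 8.48 TPM in GKO and 3.00 and 2.44 TPM in naïve cells, while Col1a2, Col3a1 and Postn were under 0.11 TPM in both lines. Col1a1 was at 0.739 and 0.724 TPM in GKO and 0.284 and 0.210 TPM in naïve cells. Of the 3 fibroblast markers tested 2, Thy1 and Col1a1, rose in GKO. The markers of primitive endoderm summed to between 1.11 and 2.40 TPM in the 4 lines in 2i. The part of these cells in the results below was not tested, and in bulk RNA fewer cells of a type and less RNA per cell cannot be told apart.

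**Figure D1:**
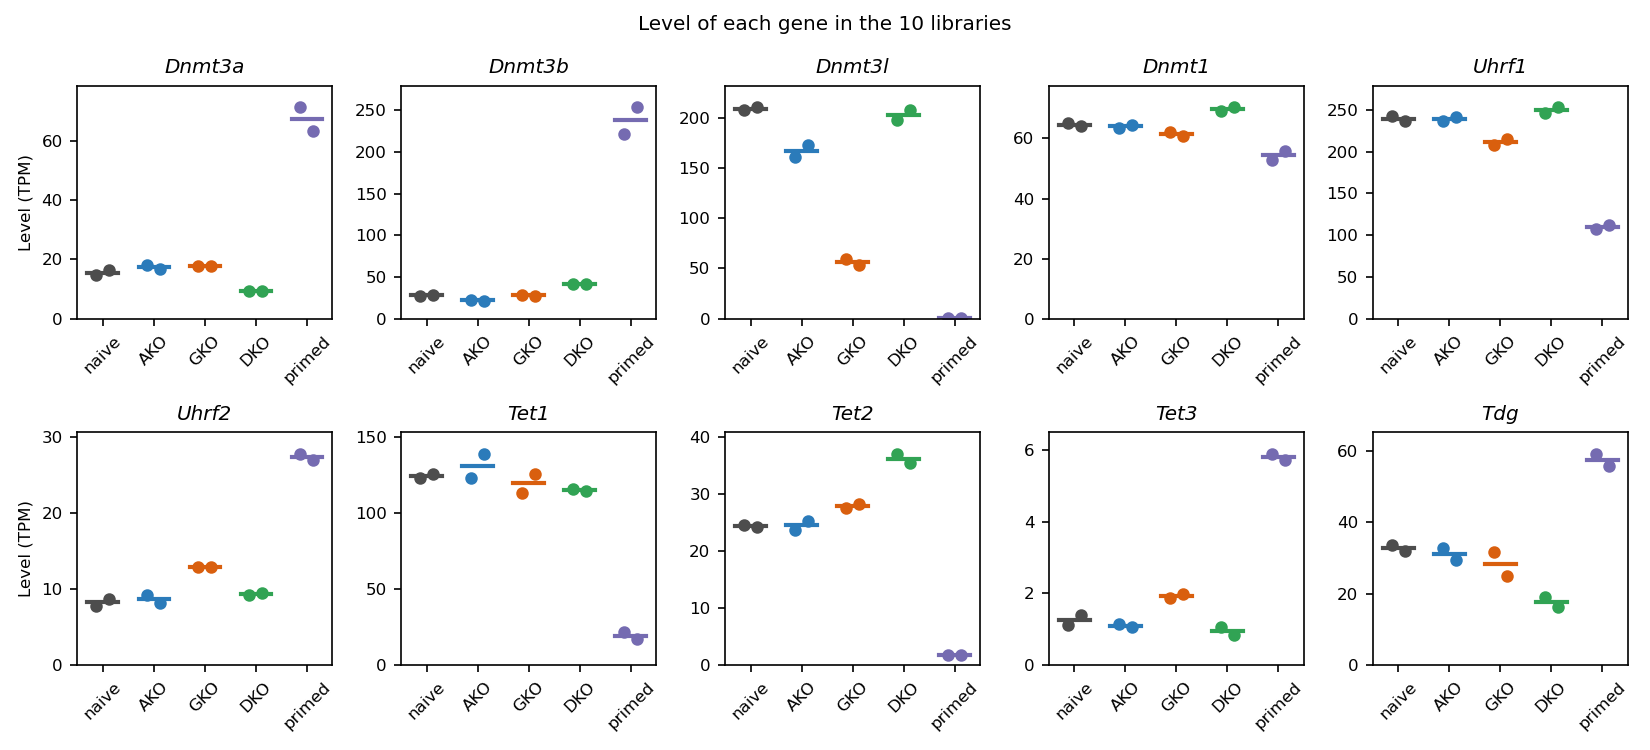
Level of each gene in TPM (vertical axes, linear and from 0) in the 5 lines (horizontal axes); points are the 2 libraries of a line and bars their mean. Dnmt3l dropped from about 209 TPM in naïve ESCs to 56.2 TPM in GKO and to near 0 in primed ESCs, whereas Dnmt1 stayed between 52.9 and 70.5 TPM in all 10 libraries.

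In GKO, 5 of the 10 genes passed the threshold of an adjusted p of 0.05 against naïve ESCs, and among all genes tested 51.7% did. Dnmt3l fell to 0.269 times its naïve level, Uhrf1 fell slightly, and Uhrf2, Tet2 and Tet3 rose. In DKO 4 genes passed, against 46.0% of all genes: Dnmt3b and Tet2 rose, and Dnmt3a and Tdg fell. In AKO 0 of 10 passed, against 0.224% of all genes, or 27 genes; 2 of the 10 and 1231 of all genes had an unadjusted p under 0.05 there by limma. In primed ESCs all 10 passed, 5 up and 5 down, against 80.0% of all genes. By direction, 3 members rose and 2 fell in GKO, against 24.7% and 27.1% of all genes, and 2 rose and 2 fell in DKO, against 21.7% and 24.3%. In AKO 0 rose and 0 fell, against 0.0663% and 0.158%, and in primed ESCs the background was 37.4% up and 42.5% down. The share of members called was near that of all genes in GKO, DKO and AKO. With 2 libraries a line, lines often do not overlap: the libraries lay apart for 8 of 10 members in GKO, 10 in DKO, 3 in AKO and 10 in primed ESCs, against 81.6%, 78.8%, 49.3% and 88.5% of all genes. These comparisons share the same 2 naïve libraries.

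**Figure D2:**
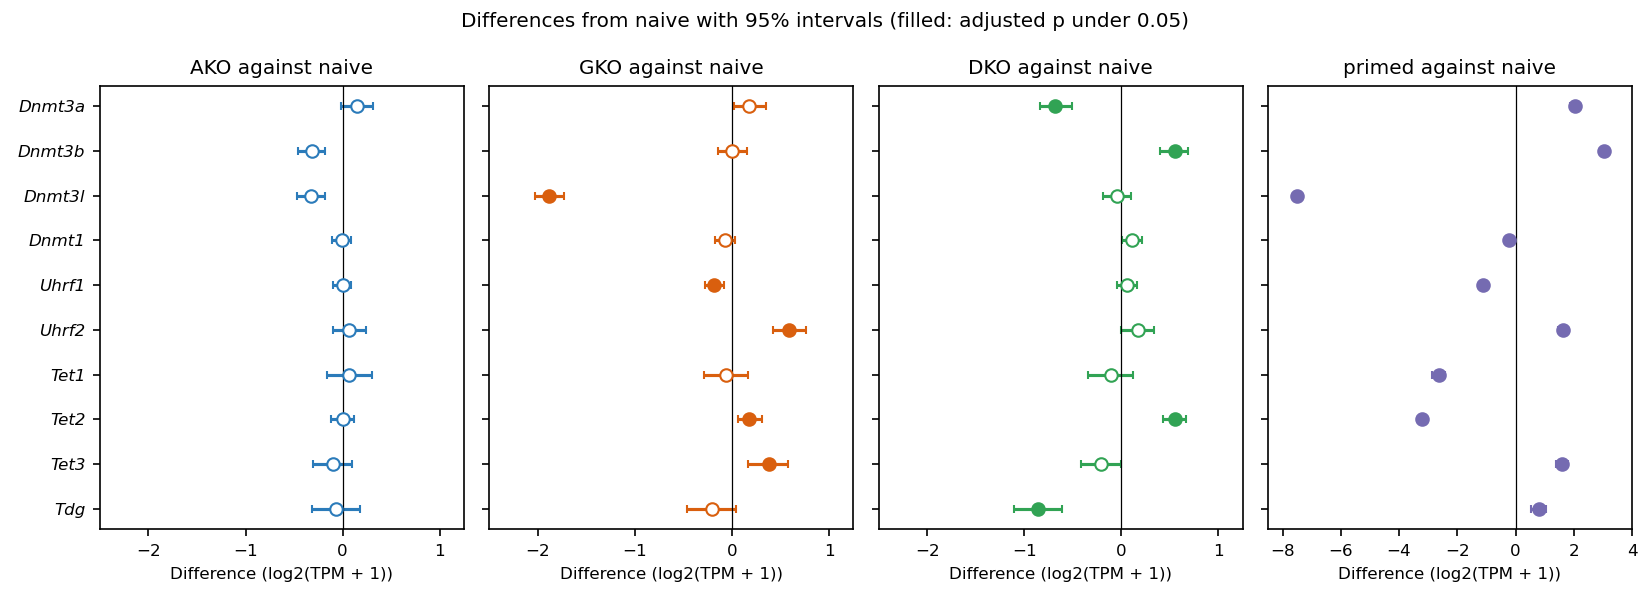
Difference of each gene from naïve ESCs on the log2(TPM + 1) scale (horizontal axes; the primed panel has a wider axis) in AKO, GKO, DKO and primed ESCs, with 95% intervals; filled points passed an adjusted p of 0.05. The largest difference in GKO was that of Dnmt3l (-1.88) and the largest in DKO that of Tdg (-0.86), and in AKO no point is filled.

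Dnmt3l, the cofactor of the de novo enzymes, was among the abundant transcripts of naïve ESCs, at 208 and 211 TPM, a rank above that of 96.7% of the genes tested. AKO held 161 and 172 TPM, DKO 198 and 207 TPM, GKO 59.3 and 53.2 TPM and primed ESCs 0.209 and 0.115 TPM. Both GKO libraries lay far below every other library in 2i, and no neighbouring pair of lines overlapped in the order primed, GKO, AKO, DKO, naïve. On the log2(TPM + 1) scale the difference from naïve ESCs was -1.88 in GKO (SE 0.07, adjusted p = 3.13e-07), a level 0.269 times that of naïve ESCs. In DKO the difference was -0.04 (SE 0.07, 95% interval -0.19 to 0.10, adjusted p = 0.611). GKO lay below DKO by a difference of -1.83 (SE 0.07, adjusted p = 9.58e-07). The AKO value of -0.33 (SE 0.07, adjusted p = 0.116) did not pass, although its 2 libraries lay below both naïve ones. In primed ESCs Dnmt3l fell by 7.50 (SE 0.07, adjusted p = 3.18e-12).

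Dnmt3b, the de novo enzyme best known from the early embryo, was at 27.5 and 28.3 TPM in naïve cells. GKO overlapped them with 28.3 and 27.6 TPM, DKO held 41.0 and 41.3 TPM, AKO 22.7 and 21.5 TPM and primed ESCs 222 and 254 TPM. The DKO libraries lay above, and the AKO libraries below, all naïve and GKO libraries. The difference was 0.55 in DKO (SE 0.06, adjusted p = 0.000191) and 3.04 in primed ESCs (SE 0.06, adjusted p = 5.15e-10). In GKO it was 0.00 (95% interval -0.14 to 0.15, adjusted p = 0.971), and in AKO -0.32 (SE 0.06, adjusted p = 0.112).

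Dnmt3a, its partner in de novo methylation, moved the other way in DKO. Naïve ESCs held 14.8 and 16.3 TPM, AKO 18.0 and 16.6 TPM, GKO 17.8 and 17.8 TPM, DKO 9.40 and 9.27 TPM, and primed ESCs 71.5 and 63.4 TPM. Both DKO libraries were below all others, AKO and GKO overlapped, and primed ESCs were above the rest. The DKO difference was -0.68 (SE 0.07, adjusted p = 0.00013) and the primed one 2.05 (SE 0.07, adjusted p = 1.4e-08). The 14 tested genes nearest to Dnmt3a had a median of -0.23 in DKO and ranged from -0.67 to 0.30, and the part of that in its value was not tested. The GKO value of 0.18 (SE 0.07, adjusted p = 0.0637) did not pass, but it did after quantile normalization (adjusted p = 0.0192) and in a fit of the naïve and GKO libraries alone (adjusted p = 0.0444).

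Because TPM are per transcript length, levels of different genes can be set side by side. Dnmt3b made up 65.1% and 63.4% of the summed Dnmt3a and Dnmt3b TPM in naïve ESCs, 55.8% and 56.4% in AKO, 61.4% and 60.9% in GKO, 81.4% and 81.7% in DKO and 75.6% and 80.0% in primed ESCs. DKO was thus the only line in 2i whose share reached that of primed ESCs, while its summed level of both enzymes, 50.4 and 50.5 TPM, stayed far from the 294 and 317 TPM of primed ESCs. For each TPM of Dnmt3a and Dnmt3b together there were 4.91 and 4.72 TPM of Dnmt3l in naïve ESCs, against 3.96 and 4.52 for AKO, 3.93 and 4.10 for DKO, 1.29 and 1.17 for GKO and 0.000712 and 0.000363 for primed ESCs. These shares are descriptions with no test.

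**Figure D3:**
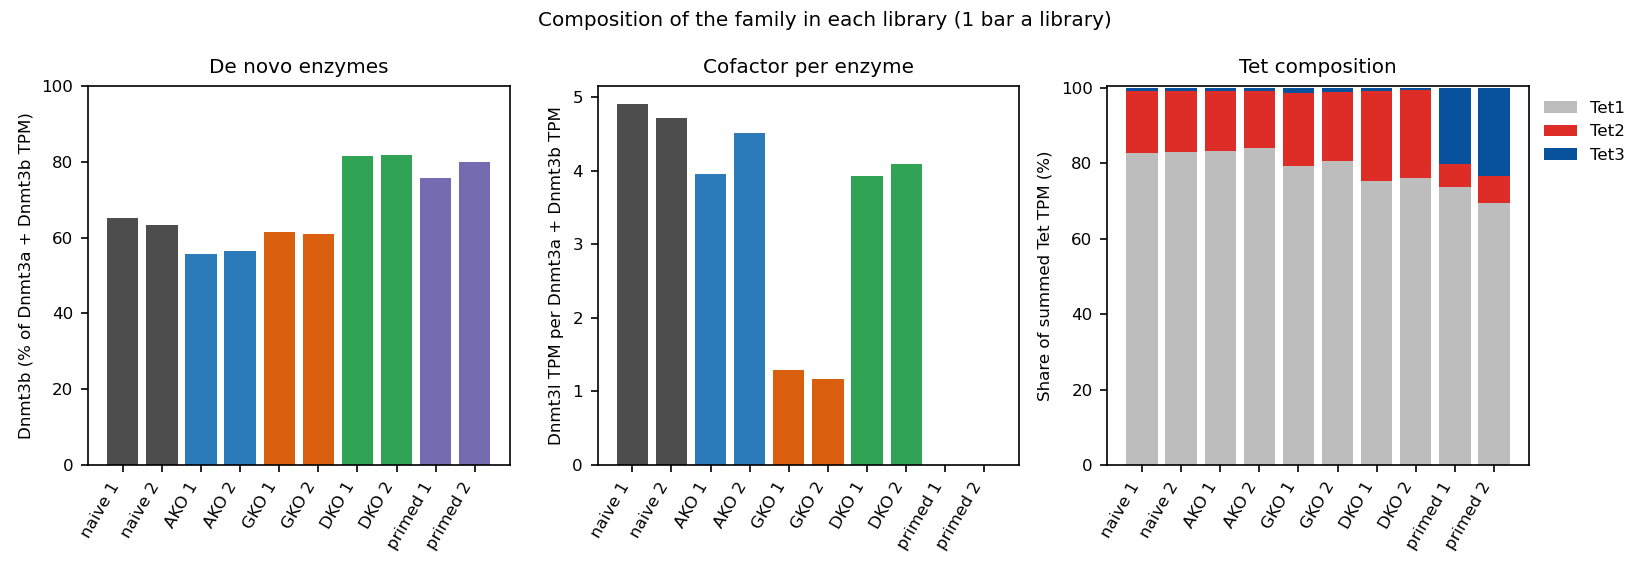
Composition of the family in each of the 10 libraries (1 bar a library): Dnmt3b as a percent of Dnmt3a plus Dnmt3b TPM, Dnmt3l TPM per TPM of Dnmt3a plus Dnmt3b, and each Tet as a percent of the 3. The share of Dnmt3b was 81.4% and 81.7% in DKO, the Dnmt3l ratio was 1.29 and 1.17 in GKO, and Tet3 was 20.3% and 23.5% in primed ESCs.

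Of the maintenance genes, Dnmt1 and Uhrf1 varied least over the 10 libraries. For Uhrf2 the highest library was 3.59 times the lowest, near the 3.62 of Tdg. Dnmt1, which copies methylation at the replication fork, was at 65.1 and 64.1 TPM in naïve cells. AKO held 63.5 and 64.6 TPM, GKO 62.3 and 60.8 TPM, DKO 69.1 and 70.5 TPM and primed ESCs 52.9 and 56.0 TPM. The highest of the 10 libraries was 1.33 times the lowest, the smallest such ratio among the 10 genes, and naïve ESCs and AKO overlapped. The difference from naïve ESCs was -0.07 in GKO (SE 0.04, adjusted p = 0.206), 0.11 in DKO (SE 0.04, adjusted p = 0.0687) and -0.01 in AKO (SE 0.04, adjusted p = 0.972). The fall of 0.24 in primed ESCs (SE 0.04, adjusted p = 0.000605) became -0.02 (adjusted p = 0.681) after quantile normalization.

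Uhrf1, which recruits Dnmt1 to half-methylated CpG, was the most abundant of the 10 in naïve ESCs, at 242 and 237 TPM. AKO held 237 and 241 TPM, DKO 247 and 253 TPM, GKO 208 and 215 TPM and primed ESCs 107 and 112 TPM. GKO lay below the other lines in 2i, and primed ESCs below GKO. The difference was -0.18 in GKO (SE 0.04, adjusted p = 0.00811) and -1.12 in primed ESCs (SE 0.04, adjusted p = 2.3e-08). The GKO call was lost after quantile normalization (-0.10, adjusted p = 0.145) and without replicate 1 of naïve ESCs or of GKO. In DKO the difference was 0.06 (SE 0.04, adjusted p = 0.273) and in AKO 0.00 (SE 0.04, adjusted p = 0.991).

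Uhrf2, a paralog of Uhrf1 that does not replace it in maintenance, ran opposite to it in GKO and in primed ESCs. It was at 7.76 and 8.73 TPM in naïve cells. AKO held 9.28 and 8.13 TPM, DKO 9.21 and 9.52 TPM, GKO 12.9 and 13.0 TPM and primed ESCs 27.8 and 27.0 TPM. GKO lay between the other lines in 2i and primed ESCs, without overlap on either side. The difference was 0.59 in GKO (SE 0.08, adjusted p = 0.000251), 0.17 in DKO (SE 0.08, adjusted p = 0.102) and 1.62 in primed ESCs (SE 0.08, adjusted p = 7.66e-08). The number of Uhrf1 TPM per Uhrf2 TPM was 31.2 and 27.1 in naïve cells, against 16.2 and 16.6 for GKO and 3.84 and 4.16 for primed ESCs. Uhrf2 lies on chromosome 19, whose 394 tested genes had a median of -0.40 in GKO, and the 20 tested genes nearest to Uhrf2 had one of -0.27, both opposite in sign to the difference of Uhrf2.

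The 3 oxidases divided. Tet1, the main Tet of ESCs, was at 123 and 126 TPM in naïve cells. AKO held 123 and 139 TPM, GKO 113 and 126 TPM, DKO 116 and 115 TPM and primed ESCs 21.5 and 17.0 TPM. Neighbouring lines in 2i overlapped throughout. It passed the threshold in primed ESCs (-2.64, SE 0.10, adjusted p = 2.4e-08) and in no other comparison. Its interval in GKO was -0.29 to 0.17 and in DKO -0.34 to 0.12.

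Tet2, which lacks the DNA-binding CXXC domain of Tet1, was at 24.5 and 24.2 TPM in naïve cells. AKO held 23.7 and 25.2 TPM, GKO 27.5 and 28.2 TPM, DKO 37.0 and 35.3 TPM and primed ESCs 1.73 and 1.71 TPM. DKO stood above all other lines, and GKO lay between DKO and the overlapping naïve and AKO libraries. The difference was 0.55 in DKO (SE 0.05, adjusted p = 7.55e-05) and -3.22 in primed ESCs (SE 0.05, adjusted p = 1.58e-10). The GKO value of 0.18 (SE 0.05, adjusted p = 0.0176) lost its call when any 1 of the 4 libraries compared was left out, with adjusted p from 0.0539 to 0.0944.

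Tet3, the Tet of the oocyte and of differentiated cells, was low in 2i, at 1.13 and 1.39 TPM in naïve cells. AKO held 1.15 and 1.05 TPM, DKO 1.07 and 0.847 TPM and GKO 1.88 and 1.99 TPM, against 5.90 and 5.73 TPM in primed ESCs. GKO lay above the other lines in 2i. The difference was 0.38 in GKO (SE 0.09, adjusted p = 0.00717) and 1.59 in primed ESCs (SE 0.09, adjusted p = 2.7e-07), on a scale that understates low genes. The GKO value was 0.23 (adjusted p = 0.0754) after quantile normalization, and its call was also lost without replicate 1 of naïve ESCs. Its DKO value was -0.21 (SE 0.09, adjusted p = 0.0926). The 20 tested genes nearest to Tet3 had a median of 0.13 in GKO. Tet3 lies on chromosome 6, whose 550 tested genes had a median of 0.14 in GKO, with 38% higher and 13.8% lower. The part of either in its value was not tested.

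The sum of the 3 oxidases lay between 142 and 165 TPM per library in the lines in 2i and was 29.1 and 24.4 TPM in primed ESCs. Its composition differed between lines, with no test made. Tet2 was 16.5% and 16.0% of it in naïve cells, against 19.3% and 18.1% for GKO and 24.1% and 23.4% for DKO. Tet3 was at most 1.32% of it in any library in 2i and 20.3% and 23.5% in primed ESCs.

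Tdg, which excises the oxidised bases that Tet enzymes make, was at 33.6 and 32.0 TPM in naïve cells. AKO held 32.9 and 29.5 TPM, GKO 31.7 and 25.1 TPM, DKO 19.0 and 16.4 TPM and primed ESCs 59.3 and 55.9 TPM. DKO lay below every other library, while GKO overlapped AKO and AKO overlapped naïve ESCs. The difference was -0.86 in DKO (SE 0.11, adjusted p = 0.00033) and 0.79 in primed ESCs (SE 0.11, adjusted p = 0.000121). In GKO it was -0.21 (SE 0.11, adjusted p = 0.142), and it passed without replicate 1 of GKO (-0.37, adjusted p = 0.0233).

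Whether the difference that goes with loss of Gys1 depended on the Prkaa1 knockout was tested as the interaction, the difference of GKO from naïve ESCs minus that of DKO from AKO. Of the 10 genes 9 passed, against 25.8% of all genes, 4 of them positive (12.8% of all genes) and 5 negative (13.1%). The members were chosen with earlier results of these data known, so this share is a description and no independent result. The interaction was -2.16 for Dnmt3l (SE 0.09, adjusted p = 1.05e-05), 1.01 for Dnmt3a (SE 0.10, adjusted p = 0.000333) and -0.86 for Dnmt3b (SE 0.09, adjusted p = 0.000347). The sources of these values were unlike. Dnmt3l fell with loss of Gys1 where AMPK was present and rose by 0.28 (SE 0.07, adjusted p = 0.00745) from AKO to DKO. That call was lost in 3 of 12 alternatives, which were a pseudocount of 0.1 (adjusted p = 0.13) and leaving out replicate 1 of AKO (0.0617) or replicate 2 of DKO (0.0541). Dnmt3a, in contrast, did not pass in GKO and fell by 0.82 (SE 0.07, adjusted p = 4.52e-05) from AKO to DKO, and Dnmt3b rose there by 0.87 (SE 0.06, adjusted p = 1.64e-05). The remaining interactions were smaller, from -0.36 for Tet2 to 0.58 for Tdg, and that of Tet1 was 0.12 (95% interval -0.21 to 0.45, adjusted p = 0.579). With any 1 library left out, between 5 and 8 of the 10 passed. It fell to 5 without replicate 1 of naïve ESCs, AKO or GKO, or replicate 2 of DKO, and the calls of Dnmt3l, Dnmt3a, Dnmt3b, Uhrf2 and Tet2 held in 16 of 16 alternatives without a minimum fold change. With an absolute log2 value of at least 1 in addition, Dnmt3l and Dnmt3a alone passed. AKO and DKO were not matched in the RNA of AMPK subunits. Prkaa1 was at 7.24 and 6.94 TPM in AKO and at 2.30 and 2.04 TPM in DKO. Prkaa2 was at 2.7 and 2.4 TPM in AKO and at 3.3 and 3.1 TPM in DKO. GKO and naïve ESCs were not matched either. Prkaa1 was at 12.2 and 12.0 TPM in GKO, a difference of -0.38 from naïve ESCs (SE 0.07, adjusted p = 0.00155). Prkaa2 rose by 0.33 in GKO (SE 0.08, adjusted p = 0.00785). The part of these differences in the interaction was not tested.

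**Figure D4:**
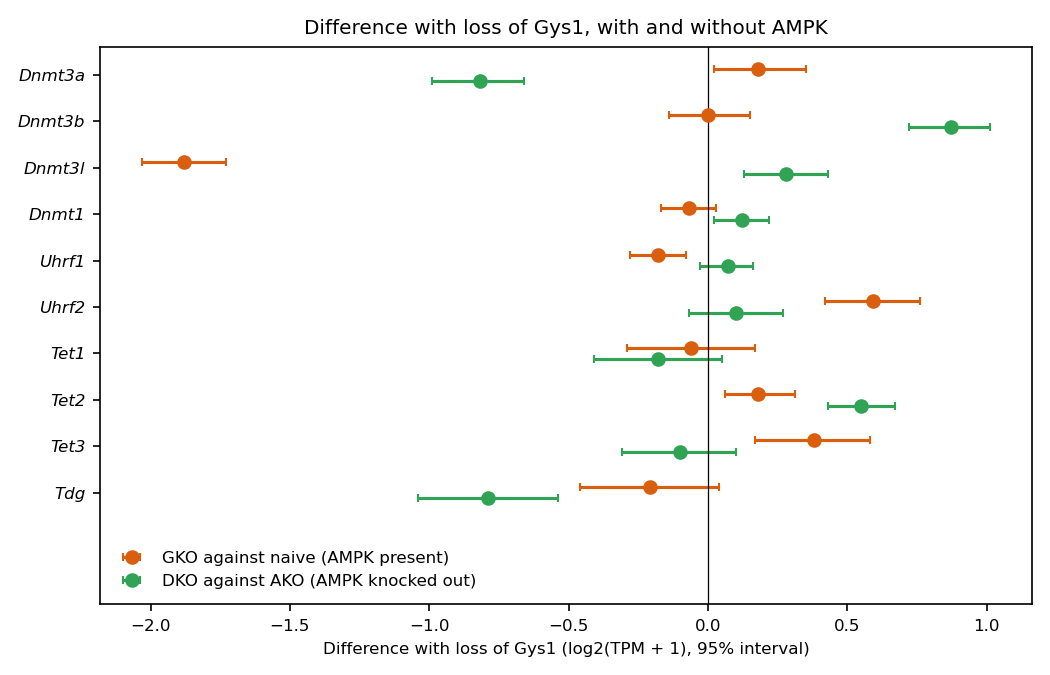
Difference with loss of Gys1 on the log2(TPM + 1) scale (horizontal axis) with 95% intervals, for GKO against naïve ESCs and for DKO against AKO. The intervals of the 2 comparisons lie apart for Dnmt3l (-1.88 and 0.28), Dnmt3a (0.18 and -0.82) and Dnmt3b (0.00 and 0.87), and overlap for Tet1.

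Directly between GKO and DKO, 9 of 10 genes passed, against 43.5% of all genes, 4 higher in GKO (21.2% of all genes) and 5 lower (22.4%). Here too the choice of members with earlier results known makes the share a description. The libraries lay apart for 9 members and 76.7% of all genes. Dnmt3a (0.86, SE 0.07), Tdg (0.65, SE 0.11), Tet3 (0.59, SE 0.09) and Uhrf2 (0.42, SE 0.08) were higher in GKO, and Dnmt3l, Dnmt3b (-0.54, SE 0.06), Tet2 (-0.37, SE 0.05), Uhrf1 (-0.24, SE 0.04) and Dnmt1 (-0.18, SE 0.04) were lower, all with an adjusted p of at most 0.00993. From AKO to DKO 6 of 10 passed, against 46.3% of all genes, 4 up (22.4%) and 2 down (23.9%), and the libraries lay apart for 8 members and 77.0% of all genes. In DKO Dnmt3b, Tet2 (0.55, SE 0.05), Dnmt3l and Dnmt1 (0.12, SE 0.04, adjusted p = 0.0468) rose, and Dnmt3a and Tdg (-0.79, SE 0.11) fell. The Dnmt1 call passed in 5 of 12 alternatives only.

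The knockouts and primed ESCs are compared with the same naïve libraries, so their differences are set side by side without a count of shared signs. Dnmt3l stood at -1.88 in GKO and -7.50 in primed ESCs, Uhrf2 at 0.59 and 1.62, and Tet2 at 0.18 and -3.22. Dnmt3b stood at 0.55 in DKO and 3.04 in primed ESCs, Dnmt3a at -0.68 and 2.05, Tet2 at 0.55 and -3.22, and Tdg at -0.86 and 0.79. In level, Dnmt3b reached 41.0 and 41.3 TPM in DKO against 222 and 254 TPM in primed ESCs. Primed marker genes stood beside these values with a sum of 25.5 and 26.0 TPM in naïve cells. GKO held 41.7 and 42.1 TPM, DKO 9.69 and 11.3 TPM and primed ESCs 235 and 247 TPM. The higher sum in GKO came mostly from Zic2, at 14.4 and 13.7 TPM in naïve cells and 33.7 and 33.2 TPM in GKO. Zic2 lies on chromosome 14, whose 394 tested genes had a median of 0.47 in GKO, with 77.2% higher. Of the 4 markers tested 1 rose and 1 fell in GKO, with Sox11 going from 4.37 and 4.75 TPM to 1.15 and 0.993 TPM, and Otx2 overlapped naïve cells. In DKO 3 of the 4 fell. The part of these markers in the members' values was not tested.

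Of 17 known regulators of the family, 15 were tested. In GKO 4 rose and 4 fell, in DKO 5 rose and 2 fell, in AKO 0 passed and in primed ESCs 2 rose and 12 fell, with medians of 0.06, 0.07, 0.02 and -0.91 against -0.01, -0.01, -0.01 and -0.05 over all genes tested. The share called was 53.3% in GKO and 46.7% in DKO, near the 51.7% and 46.0% of all genes, and 93.3% in primed ESCs against 80.0%. Dppa3 (Stella), which keeps Uhrf1 off chromatin, was at 1.42 and 1.20 TPM in naïve cells. AKO held 1.03 and 1.25 TPM, GKO 2.44 and 2.53 TPM and DKO 4.12 and 5.79 TPM, and both primed libraries listed it at 0. The rise was 0.59 in GKO (SE 0.13, adjusted p = 0.00457) and 1.35 in DKO (SE 0.13, adjusted p = 6.97e-05). Like Tet3, Dppa3 lies on chromosome 6, whose median was 0.14 in GKO and -0.01 in DKO. Prdm14, a repressor of the de novo genes in naïve cells, was at 15.4 and 14.8 TPM in naïve cells. GKO held 18.7 and 16.6 TPM, DKO 13.3 and 14.2 TPM and primed ESCs 0.016 and 0.014 TPM. It rose by 0.21 in GKO (SE 0.07, adjusted p = 0.0392), and its DKO value was -0.13 (SE 0.07, adjusted p = 0.186).

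Of the other regulators, Nsd1, which writes the H3K36 methylation that Dnmt3a reads, fell by 0.73 in GKO (SE 0.07) and by 0.32 in DKO (SE 0.07). Hells, a remodeller needed for methylation of repeats, fell by 0.46 in GKO (SE 0.06) and 0.39 in DKO (SE 0.06) and, like Uhrf2, lies on chromosome 19, whose median was -0.40 and -0.27. Ogt, a partner of Tet proteins, rose by 0.38 in GKO (SE 0.07). Zfp57, which guards methylation at imprints, was at 197 and 206 TPM in naïve cells. It fell by 0.41 in GKO (SE 0.07, adjusted p = 0.00157), to 152 and 151 TPM, and rose by 0.25 in DKO (SE 0.07). In primed ESCs it fell by 3.55 (SE 0.07), to 15.2 and 17.4 TPM.

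Of 8 methyl-CpG binding proteins 7 were tested, of which 1 rose and 3 fell in GKO (median 0.04), 1 rose and 2 fell in DKO (median -0.10) and 2 rose and 3 fell in primed ESCs (median 0.06). The share called was 57.1% in GKO, 42.9% in DKO and 71.4% in primed ESCs, against 51.7%, 46.0% and 80.0% of all genes. Mbd3 fell by 0.52 in GKO (SE 0.09) and 0.46 in DKO (SE 0.09). The 13 genes of base excision repair after Tet and Tdg were all tested. In GKO 2 rose and 5 fell (median -0.13), in DKO 2 rose and 4 fell (median 0.02), and in primed ESCs 6 rose and 6 fell (median -0.47), a share called of 53.8%, 46.2% and 92.3% against the same backgrounds. Gadd45a, linked to DNA repair and demethylation, rose by 1.46 in GKO (SE 0.20), from 9.85 and 7.40 TPM to 28.7 and 22.1 TPM. It lies on chromosome 6, whose median in GKO was 0.14. Apex1, the nuclease that follows Tdg, rose by 0.61 in DKO (SE 0.09), where Tdg fell, and lies on chromosome 14, whose 394 tested genes had a median of 0.36 in DKO.

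Of 13 genes that supply the methyl donor or 2-oxoglutarate, the cofactor of Tet enzymes, 12 were tested. In GKO 2 rose and 2 fell (median -0.15), in DKO 2 rose and 6 fell (median -0.19), and in primed ESCs 6 rose and 4 fell (median 0.28), a share called of 33.3%, 66.7% and 83.3% against those backgrounds. In AKO 0 genes of the binder, repair and supply lists passed. Mtr, the methionine synthase, rose by 0.68 in GKO (SE 0.07) and 0.82 in DKO (SE 0.07). Phgdh of serine synthesis fell by 0.64 in DKO (SE 0.09).

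Germline genes that are textbook targets of promoter methylation differed between GKO and DKO. Of 16 listed, 12 were tested. In GKO 5 rose and 3 fell with a median of -0.02, in DKO 0 rose and 9 fell with a median of -0.56, in AKO 0 passed, and in primed ESCs 0 rose and 11 fell with a median of -1.45. Of all genes 24.7% rose and 27.1% fell in GKO, 21.7% and 24.3% in DKO and 37.4% and 42.5% in primed ESCs. Between GKO and DKO 10 of the 12 were higher in GKO and 0 lower, against 21.2% and 22.4% of all genes, with a median of 0.57 against -0.01 over all genes tested. The interaction passed for 8 of 12, all positive, against 12.8% of all genes positive and 13.1% negative. This list was also chosen with earlier results of these data known, so its counts are a description. Rhox5, Tex11 and Taf7l, all called lower in DKO, lie on the X chromosome. Its 430 tested genes had a median of -0.26 in DKO, where 53.7% of them fell and 7.21% rose. Of these X genes 39.5% were higher in GKO than in DKO and 20.5% lower, and 34.9% had a positive interaction and 12.3% a negative one. Stk31, which rose in GKO, lies on chromosome 6. Of its 550 tested genes 42.5% were higher in GKO than in DKO and 11.6% lower, and 29.5% had a positive interaction and 7.09% a negative one. The part of these chromosomes in the germline counts was not tested.

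Ddx4, an RNA helicase of germ cells, was at 2.68 and 2.18 TPM in naïve cells. GKO held 10.4 and 9.53 TPM and DKO 3.00 and 2.57 TPM, a rise of 1.68 in GKO (SE 0.10, adjusted p = 5.45e-06). Piwil2, of the piRNA pathway, was at 3.04 and 2.22 TPM in naïve cells. GKO held 7.11 and 7.59 TPM, a rise of 1.21 (SE 0.19, adjusted p = 0.000698). It lies on chromosome 14, whose median in GKO was 0.47. Sycp3, of the meiotic chromosome axis, was at 3.04 and 3.08 TPM in naïve cells. GKO held 6.39 and 6.23 TPM and DKO 1.46 and 1.59 TPM. Dazl, a germ cell RNA-binding protein, fell in both, by 0.91 in GKO (SE 0.07) and 0.90 in DKO (SE 0.07), and was listed at 0 in primed ESCs. Rhox5, a homeobox gene, was at 23.7 and 23.7 TPM in naïve cells. GKO held 12.5 and 12.5 TPM and DKO 7.58 and 7.82 TPM. Hormad1, of meiosis, fell by 1.10 in DKO (SE 0.08). Most of these levels were under 10 TPM, where the log2(TPM + 1) scale understates changes.

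**Figure D5:**
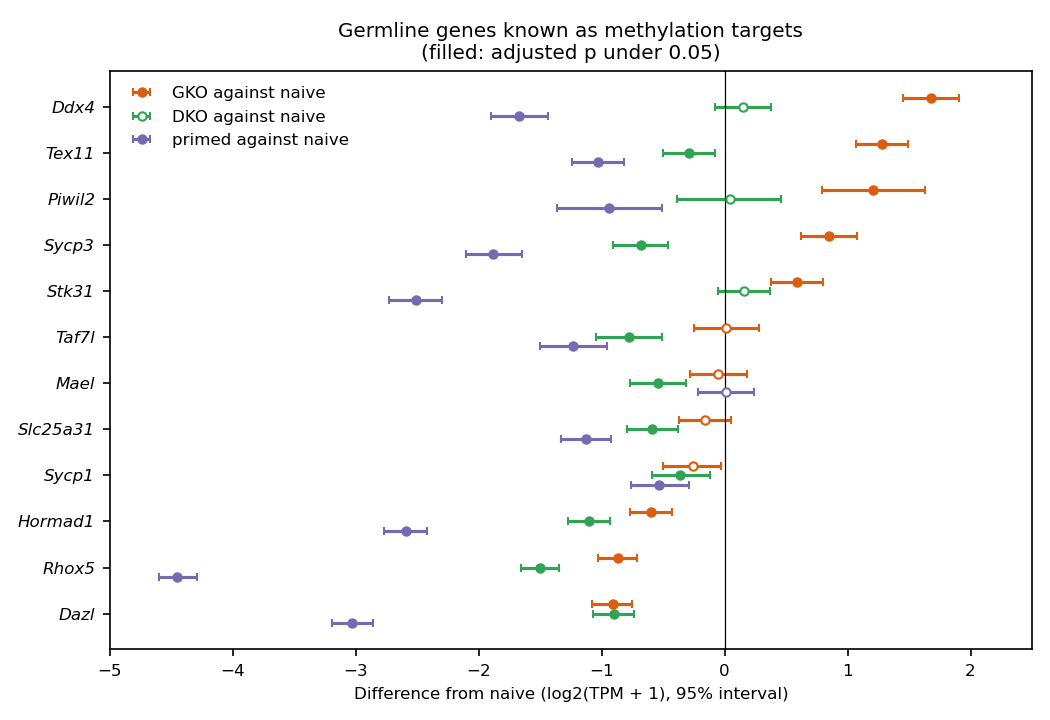
Difference from naïve ESCs on the log2(TPM + 1) scale (horizontal axis), with 95% intervals, of the 12 tested germline genes in GKO, DKO and primed ESCs; filled points passed an adjusted p of 0.05. The 5 genes that rose in GKO head the plot, from Ddx4 (1.68) to Stk31 (0.59), and no filled point of DKO or primed ESCs lies to the right of 0.

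Among 8293 tested genes with a mean of at least 5 TPM, genes like each member over the 8 libraries in 2i were ranked by Pearson's r of log2(TPM + 1). The 8 libraries are 4 pairs, so r mainly follows the order of the 4 lines. Among the 3 closest to Dnmt3l were Mterf4 (0.991) and Prrc1 (0.990), and the 3 closest to Dnmt3b were Clybl (0.987), Hmga2 (0.986) and Klhl22 (0.985). For Dnmt3a they were Ints7 (0.994), Dennd2a (0.990) and Pdia4 (0.990). For Dnmt1 they were Mme (0.992), Dusp27 (0.992) and Tfpi (0.985), for Uhrf1 Cask (0.992), Tcl1 (0.988) and Flot1 (0.987), and for Uhrf2 Bmt2 (0.987), Top2b (0.984) and Psen2 (0.983). Those of Tdg were Usp3 (0.985), Cul3 (0.983) and Kif7 (0.982). Among the 3 closest to Tet2 were Haus2 (0.995) and Nfatc2ip (0.994), and among those closest to Tet3, out of 8294 genes, Cdk5r2 (0.990) and Vps4a (0.981). Tet1, which passed in no comparison among the lines in 2i, reached 0.938 with 1700021F05Rik, 0.931 with Zfp760 and 0.920 with Crtc2.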

How the data were processed

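The 10 libraries were assigned to lines and replicates from their sample labels, and the tables held 0 other per-sample columns. Per the submitters' processing notes, reads were trimmed with Trim Galore 0.6.6, aligned with STAR 2.7.9a and quantified with RSEM 1.3.3. The sources name both GRCm38 and GRCm39 as the build, and differ on the library kit and sequencer. The authors deposited TPM per protein-coding gene, so depth is unknown, a strongly rising gene lowers the others slightly, and no interval from counts is given.

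From the deposited TPM, log2(TPM + 1) was tested for the 12060 genes that reached 1 TPM in 2 or more libraries, with limma 3.58.1 in R 4.3.3. All 10 libraries entered 1 fit with a mean per line and an intensity trend, and p-values were adjusted by Benjamini-Hochberg over all genes tested in each of 7 comparisons. SE and 95% intervals come from that fit, and fold changes of low genes are understated. Exact tests of 2 libraries against 2 cannot go below 0.333. On simulated data for GKO against naïve ESCs with 12060 genes, a log2 change of 1 was recovered for 195 of 200 altered genes and 7 unchanged genes were called. The simulated noise was independent between libraries, no clone effect was added, and the lowest genes were not among those altered. It therefore does not bear on smaller differences, on low genes such as Tet3 or on differences between clones.

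The members and gene lists were chosen with earlier results of these data known. All 10 members, Dppa3 and Prdm14 are named, with the up to 2 largest called rises and falls per list and comparison that reached a mean of 5 TPM without overlap between libraries; not all of these are printed. Gys1, Prkaa1 and Prkaa2 are named as label checks. For each member, genes among the 3 closest to it by Pearson correlation are named. Some genes that this rule names are not reported here. Chromosomes, found for 11596 of the genes tested, and gene order came from GENCODE on GRCm39, and start windows from RefSeq on GRCm38.p6. Alternatives were another pseudocount, filter, scaling and prior, a replicate block, only the lines compared, a minimum fold change, and each library left out.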

Additional observations from a re-analysis of the deposited data

Results flagged for a closer look

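Each gene below had a difference with loss of Gys1 that differed between lines with and without the Prkaa1 knockout. Neither AKO and DKO nor GKO and naïve ESCs were matched in Prkaa1 RNA, as given above. The interaction, on the log2(TPM + 1) scale by limma, was adjusted over all genes tested. Among the de novo genes it was -2.16 for Dnmt3l, 1.01 for Dnmt3a and -0.86 for Dnmt3b. For Dnmt3l the change lay in GKO, at 59.3 and 53.2 TPM against 208 and 211 TPM in naïve ESCs. For Dnmt3a and Dnmt3b it lay between AKO and DKO, where Dnmt3a went from 18.0 and 16.6 TPM to 9.40 and 9.27 TPM and Dnmt3b from 22.7 and 21.5 TPM to 41.0 and 41.3 TPM. The 14 tested genes nearest to Dnmt3a ranged from -0.87 to 0.22 from AKO to DKO, with a median of -0.34. In the interaction they ranged from -0.61 to 1.09, and the 20 nearest to Dnmt3b from -0.90 to 0.59. The part of these neighbourhoods in the 2 genes' values was not tested.

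Among the maintenance genes the interaction was 0.49 for Uhrf2 (adjusted p = 0.0105), -0.24 for Uhrf1 (adjusted p = 0.0194) and -0.19 for Dnmt1 (adjusted p = 0.0495). That of Dnmt1 passed in 2 of 16 alternatives and that of Uhrf1 in 10 of 16. Among the oxidases and the glycosylase it was -0.36 for Tet2 (adjusted p = 0.00873), 0.48 for Tet3 (adjusted p = 0.0238) and 0.58 for Tdg (adjusted p = 0.0259). Tet3 passed in 10 of 15 alternatives and Tdg in 10 of 16. Tet3 lies on chromosome 6, where 29.5% of the 550 tested genes had a positive interaction and 7.09% a negative one. The part of that in its value was not tested. Each line of this contrast has 2 libraries, and the clone cannot be told apart from the genotype.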

How the results depend on the processing

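Of 873 alternative values for single members, 793 kept their direction and side of the threshold, 53 lost a call, 10 gained one and 17 changed sign. None of the 17 was called as reported, and 1 of them, Tet1 in DKO, was called in 1 alternative, only the lines compared (-0.11, adjusted p = 0.0367). With an absolute log2 difference of at least 1 in addition, the number of members called was 1 in GKO, 0 in DKO, 1 in GKO against DKO, 0 in DKO against AKO and 2 in the interaction, and of all genes 433, 357, 323, 375 and 349, with 1 in AKO and 3355 in primed ESCs. Quantile normalization gave 7 members in DKO, adding Dnmt1, Uhrf1 and Tet3. For AKO the genes called numbered 13 with a pseudocount of 0.1, 17 with a mean of at least 5 TPM, 8 with the replicate block and 0 with only the lines compared. Leaving out 1 library at a time gave 2 to 4 members in GKO (2 without naïve replicate 1), 4 to 4 in DKO, 0 to 0 in AKO, 10 to 10 in primed ESCs, 8 to 9 in GKO against DKO, 4 to 5 in DKO against AKO and 5 to 8 in the interaction. Over all genes it gave 4581 to 4817 in GKO, 3983 to 4293 in DKO, 1 to 3 in AKO, 8805 to 9616 in primed ESCs, 3540 to 3943 in GKO against DKO, 4100 to 4292 in DKO against AKO and 1944 to 2400 in the interaction; fewer libraries leave fewer degrees of freedom.

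The sign changes were as follows. Quantile normalization gave 0.02 for Dnmt1 and 0.05 for Tet1 in GKO, and 0.02 for Dnmt3l and 0.0062 for Tet1 in DKO. Median-ratio scaling gave 0.0011 for Uhrf1 in AKO. Leaving out 1 library gave Dnmt3b from -0.02 to 0.02 and Tet1 from -0.14 to 0.02 in GKO, Tet1 from -0.03 to 0.13 in GKO against DKO, and in AKO Uhrf1 from -0.02 to 0.01, at 0.0092 without AKO replicate 1, Uhrf2 from -0.02 to 0.15, Tet2 from -0.04 to 0.05, Tet1 from -0.02 to 0.16 and Tdg from -0.15 to 0.0039. The cause was not tested.

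Same-numbered libraries of different lines did not deviate together, with correlations from -0.13 to 0.08 over the 10 pairs of lines, so the replicate numbers were not taken as pairing. With the replicate block, GKO against naïve ESCs gave 6 members (Tdg in addition, adjusted p = 0.0351), DKO against naïve ESCs 4, AKO 0, primed ESCs 10, GKO against DKO 9, DKO against AKO 5 and the interaction 8.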

Other observations

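Dnmt3l did not fall alone in GKO. The tested genes on either side of it on chromosome 10, Aire and Icosl, were looked at after their values had been seen. Icosl, a ligand of the T cell costimulator ICOS, was at 7.73 and 7.22 TPM in naïve cells. AKO held 6.21 and 6.23 TPM, DKO 5.03 and 5.29 TPM, GKO 1.46 and 1.50 TPM and primed ESCs 2.26 and 2.79 TPM. Its difference in GKO was -1.77 (SE 0.09, adjusted p = 1.82e-06), close to the -1.88 of Dnmt3l. Aire, the thymic regulator of self-antigens, was at 2.03 and 1.94 TPM in naïve cells. DKO held 1.39 and 1.50 TPM and GKO 0.290 and 0.488 TPM, with a difference of -1.11 (SE 0.09, adjusted p = 1.92e-05). The next tested genes out were Pfkl, beyond Aire, which rose by 0.53 (adjusted p = 0.00543), and Pwp2, beyond Icosl, at -0.21 (adjusted p = 0.0742). The 20 tested genes nearest to Dnmt3l had a median of -0.01 in GKO. The interaction was -1.54 for Icosl (adjusted p = 0.000108) and -0.87 for Aire (adjusted p = 0.00139), beside -2.16 for Dnmt3l. In DKO, where Dnmt3l stood at -0.04, Icosl was at -0.46 (adjusted p = 0.00245) and Aire at -0.29 (adjusted p = 0.0224).

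Dnmt3b, Tet2 and Tdg, which moved in DKO, lay among genes whose medians did not follow them, although single neighbours of Dnmt3b and Tet2 did rise. The medians of the 20 nearest tested genes in DKO were -0.17 for Dnmt3b (itself 0.55), -0.01 for Tet2 (0.55) and 0.08 for Tdg (-0.86). The neighbours ranged from -0.98 to 0.53 for Dnmt3b, from -0.45 to 1.58 for Tet2 and from -0.40 to 0.39 for Tdg. The part of the neighbourhood in these values was not tested.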
